A study of Homo sapiens with 82 samples.

Results

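The 86 genes described here are the nuclear genes of oxidative phosphorylation, taken by name from the 51838 rows of each count table: symbols of the NDUFA, NDUFB, NDUFC, NDUFS and NDUFV series, SDHA to SDHD, UQCR, COX4 to COX8 and ATP5. Of 158 rows that match these names, 71 carry pseudogene names and 1 a hyphenated readthrough name (ATP5J2-PTCD1), and these were left out. By name, 38 of the genes belong to complex I, 4 to complex II, 8 to complex III, 17 to complex IV and 16 to complex V. The last 3 (COX4NB, ATP5S and ATP5SL) share the name pattern but are not subunits of the complexes, which leaves 83 subunit genes. NDUFA4, named for complex I, is now assigned to complex IV. It and its paralog NDUFA4L2 were kept under their names and counted with complex I.

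The cells were HT29, an established human colorectal cancer line. RNA was sequenced after 24 and 48 h with the vehicle DMSO, with GW3965 or T0901317 (agonists of the liver X receptors LXRA and LXRB) or with rosiglitazone (an agonist of PPARG), each drug at 10 µM. Each of the 8 groups of drug and time had 4 libraries, 32 in all. Every group, DMSO included, is this 1 line, kept before treatment in medium without phenol red and with charcoal-treated serum, with mRNA isolated on beads and fragmented as cDNA by a transposase. The study reports that each treatment was done in quadruplicate. Neither that statement nor the labels say that replicates were separate cultures, so p-values measure the spread between these libraries, which may be technical.

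Complexes I to IV of the inner mitochondrial membrane pass electrons from NADH and succinate to oxygen, and complexes I, III and IV pump protons as they do so. Complex V, the ATP synthase, lets the protons flow back and makes ATP. Complex II, succinate dehydrogenase, is also an enzyme of the TCA cycle and is made from nuclear genes alone, whereas the other complexes also hold subunits encoded by mitochondrial DNA.

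Library totals ran from 21044798 to 51332656 counts, and the 86 genes took 0.375 to 0.519% of them. Levels are given as CPM, read counts relative to the TMM-scaled library total, and fold changes on the log2 scale. A call is an adjusted p under 0.01 by edgeR's quasi-likelihood test with Benjamini-Hochberg adjustment over all genes tested. As a check of the labels, mean ABCA1, an LXR target, went from 4.65 CPM with DMSO to 114 with GW3965 and 60.9 with T0901317 at 24 h, and mean ANGPTL4, a PPARG target, from 0.594 to 19.9 with rosiglitazone. The check held 4 genes, these with ABCG1 and PDK4, and they were not specific to 1 drug. With GW3965, 3 were called higher at 24 h and all 4 at 48 h, and with T0901317 2 and 3. With rosiglitazone, 3 were called higher and 1 lower at 24 h and 3 higher at 48 h. The epithelial marker EPCAM had group means of 254 to 340 CPM. Of 8 epithelial markers, 4 were called higher with GW3965 at 48 h, 2 higher and 2 lower with T0901317, and 3 higher and 2 lower with rosiglitazone (KRT20 higher by 1.75 on the log2 scale). Of 6 markers of other cells, PTPRC, CD3E, ALB and MYH7 had group means of at most 0.0463 CPM. The other two were COL1A1 (3.04 to 8.07 CPM), which rose with GW3965 at 48 h (0.53), and GFAP (0.0510 to 0.377 CPM), which fell with rosiglitazone at 48 h (-1.98). The part of these markers in the results was not tested. At 48 h, replicate 3 of DMSO and replicate 3 of T0901317 stood apart by a low share of counts from mitochondrial DNA (1.85% and 2.57%), and counts of calls at 48 h without both of them are given beside the results. Replicate 3 also had the lowest share of its group at 48 h with GW3965 (2.80%, others 3.11 to 3.27%) and with rosiglitazone (2.37%, others 2.54 to 2.75%). The labels do not say whether same-numbered libraries were handled together. In bulk samples, fewer cells of a type and less RNA per cell cannot be told apart.

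The results turn on 4 genes more than on others: SDHA, the flavoprotein subunit of complex II that oxidizes succinate; NDUFB8, an accessory subunit in the membrane arm of complex I; COX6B1, a subunit of complex IV on its intermembrane side; and ATP5G1, 1 of 3 genes for the same ring subunit c of complex V. Their promoters, the 250 bases before the transcription start in RefSeq (GRCh38.p14), are shown with letters known from the promoters of respiratory genes. For SDHA (chr5:218070-218319, plus strand) the capitals mark GCGCA and GCGC with any 1 base between them, the letters of nuclear respiratory factor 1 (NRF1). For NDUFB8 (chr10:100529924-100530173, minus strand) they mark GGGCGG on the other strand, the letters of SP1. For COX6B1 (chr19:35648073-35648322, plus strand) and ATP5G1 (now ATP5MC1, chr17:48892537-48892786, plus strand) they mark the CCAAT box on either strand.
SDHA: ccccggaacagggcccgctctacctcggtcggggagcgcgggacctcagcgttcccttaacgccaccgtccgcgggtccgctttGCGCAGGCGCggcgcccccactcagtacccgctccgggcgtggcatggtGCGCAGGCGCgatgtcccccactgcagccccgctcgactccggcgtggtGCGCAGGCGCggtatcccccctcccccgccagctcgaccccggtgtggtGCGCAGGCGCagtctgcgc
NDUFB8: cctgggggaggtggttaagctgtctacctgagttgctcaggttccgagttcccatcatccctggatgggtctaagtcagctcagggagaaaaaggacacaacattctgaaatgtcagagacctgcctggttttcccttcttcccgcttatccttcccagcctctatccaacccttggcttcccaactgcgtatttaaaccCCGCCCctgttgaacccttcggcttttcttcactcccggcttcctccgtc
COX6B1: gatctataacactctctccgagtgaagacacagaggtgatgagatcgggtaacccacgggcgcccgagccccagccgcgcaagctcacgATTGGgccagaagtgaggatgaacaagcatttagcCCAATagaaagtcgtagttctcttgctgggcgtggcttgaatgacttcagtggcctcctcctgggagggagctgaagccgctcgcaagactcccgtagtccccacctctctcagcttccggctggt
ATP5G1: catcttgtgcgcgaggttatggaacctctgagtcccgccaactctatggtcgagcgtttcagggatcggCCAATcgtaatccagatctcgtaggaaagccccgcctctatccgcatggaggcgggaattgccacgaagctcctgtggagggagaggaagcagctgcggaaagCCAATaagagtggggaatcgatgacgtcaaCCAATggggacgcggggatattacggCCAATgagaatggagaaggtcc

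A promoter was matched for 67 of the 86 genes. With both strands searched, the NRF1 letters stood in 14 of the 67 (20.9%), in 7.66% of 15843 protein-coding genes and in 5.53% of all 27305 genes with a promoter. The SDHA promoter held them 4 times, and 12 of the 27305 genes held them that often. The ETS letters CCGGAAG stood in 17 of the 67 (25.4%) and in 11.8% of protein-coding genes. SP1 letters (55.2% against 55.8%) and the CCAAT box (34.3% against 34.5%) were about as frequent in members as in protein-coding genes. The YY1 letters AAGATGG stood in 4 of the 67 (5.97% against 3.38%). None of the 67 held strict direct repeats of AGGTCA, with 4 bases between them as for LXR or 1 base as for PPARG, which stood in 0.0146% and 0.0183% of all promoters. These are matches of letters, and binding was not measured by them.

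**Figure D1:**
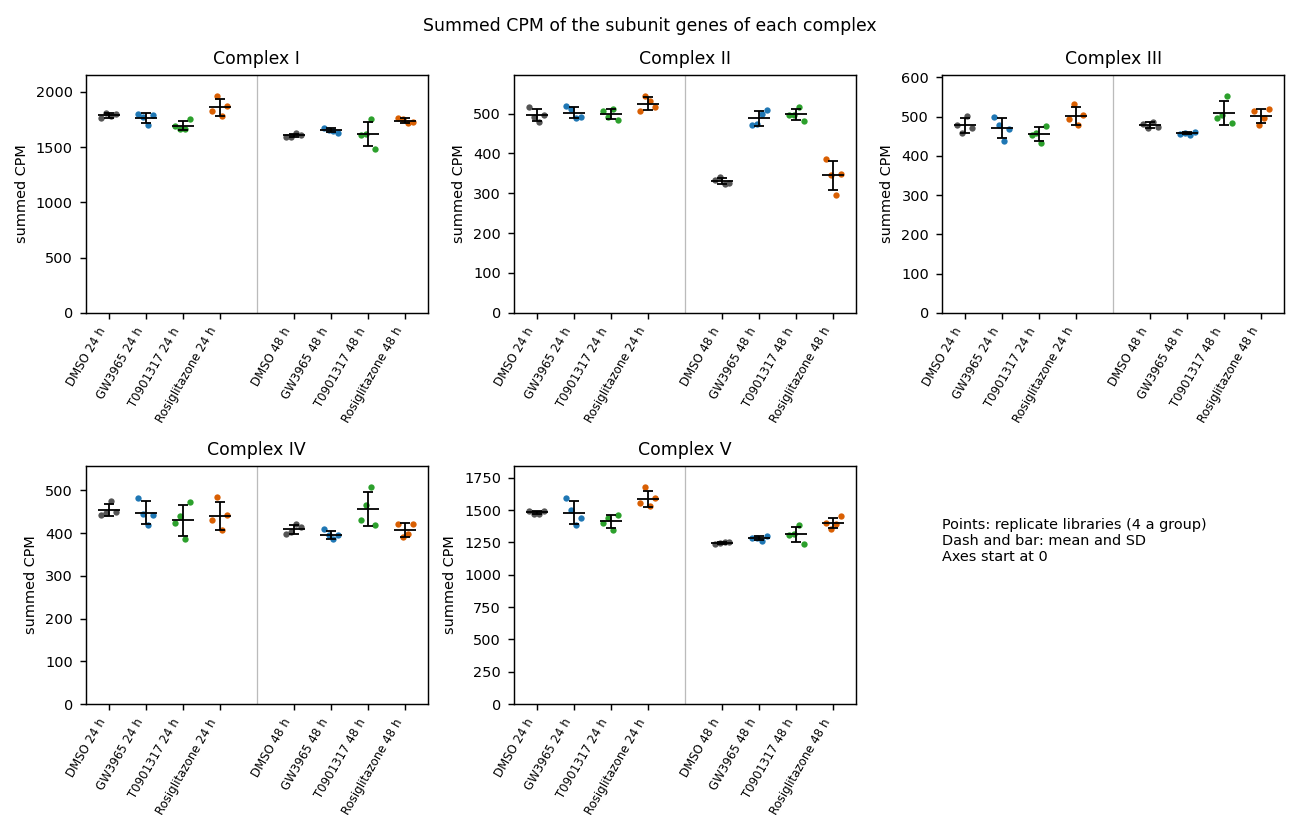
Summed CPM of the subunit genes of complexes I to V (y axes, CPM, starting at 0) in the 8 groups of drug and time; points are libraries, and each dash with its bar is the mean and SD of 4. The complex II sum in DMSO had a mean of 496 at 24 h and 331 at 48 h, beside 488 with GW3965 and 498 with T0901317 at 48 h. SDHA made up most of this sum.

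In vehicle cells, the nuclear genes of oxidative phosphorylation were mostly lower at 48 h than at 24 h. Between the DMSO groups, 35 of the 82 genes tested fell and 4 rose (47.6% called), where 38.6% of all 23140 genes tested were called, 19.7% higher and 18.9% lower. Of well-expressed genes, here those whose log2 CPM averaged 5 or more, 60.8% were called. The median log2 change was -0.19 over the 82 genes and 0.00 over all genes. By complex, 17 fell and 2 rose in complex I, 2 fell in complex II, 1 fell in complex III, 4 fell and 1 rose in complex IV, and 10 fell in complex V. Without both 48 h libraries of low mitochondrial share, 31 fell and 4 rose. Libraries of 24 and 48 h are in separate tables, so that time and handling cannot be told apart.

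ATP5G1 had the largest fall among them. Its levels in DMSO were 53.5, 56.0, 54.2 and 53.2 CPM at 24 h and 21.9, 26.4, 24.1 and 25.7 CPM at 48 h, so the groups did not overlap (log2 change -1.14). SDHA was 372, 349, 333 and 351 CPM at 24 h and 212, 216, 196 and 201 CPM at 48 h (log2 change -0.77). All 4 libraries of 48 h were below all 4 of 24 h. COX6B1 (-0.87), NDUFS6 (-0.80, an accessory subunit of complex I), ATP5G3 (-0.76, a second gene of subunit c), UQCR10 (-0.66, a small subunit of complex III) and NDUFB8 (-0.60) fell as well. The 4 that rose were NDUFA4L2 (3.01), COX7A2L (0.41), NDUFS1 (0.34) and ATP5SL (0.34). NDUFA4L2, a paralog of NDUFA4 known for its induction in low oxygen, was at 0.515, 0.479, 0.499 and 0.449 CPM at 24 h and at 3.64, 4.46, 4.61 and 3.08 CPM at 48 h.

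At 24 h, drugs moved few of these genes past the test. GW3965 against DMSO gave no call, where 2.73% of all 21781 genes were called. At an unadjusted p under 0.05, 3 of the 82 were lower and 0 higher, and DESeq2 made no call either. T0901317 gave 1 call (1.22%, against 1.45% of all genes). This was ATP5G1, at 40.7, 42.3, 42.9 and 48.5 CPM, all below DMSO (log2 change -0.31, SE 0.060, adjusted p = 0.0048). The call was lost, leaving 0 genes called, without any 1 of the DMSO libraries or of T0901317 replicates 1, 2 and 3 (adjusted p up to 0.030). Rosiglitazone gave no call, where 12.3% of all genes were called. At an unadjusted p under 0.05, 11 genes were higher and 8 lower, and DESeq2 called 2 higher.

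The 3 drug responses at one time share their DMSO libraries, so each comparison's values are given side by side. At 48 h, GW3965 against DMSO raised 8 and lowered 7 of the 82 genes (18.3% called), where 33.6% of all 22470 genes (3621 higher and 3939 lower) and 56.5% of well-expressed ones were called. T0901317 raised 13 and lowered 2 (18.3%), against 30.0% of all genes (3135 higher and 3607 lower) and 49.9% of well-expressed ones. Rosiglitazone raised 13 and lowered 8 (25.6%), against 25.5% of all genes (2771 higher and 2949 lower) and 40.6% of well-expressed ones. For both LXR agonists the share of members called was below that of all genes, and for rosiglitazone it was near it. Medians of the log2 change over the 82 genes were 0.02 for GW3965, 0.10 for T0901317 and 0.00 for rosiglitazone, beside 0.00, 0.01 and -0.01 over all genes. Without 1 library the median for T0901317 ranged from 0.05, without T0901317 replicate 3, to 0.13, and without both libraries of low mitochondrial share it was 0.06. Scaled by library size, the medians were -0.03, 0.14 and -0.18. Few changes were large. At least 1.5-fold changes were called for SDHA, COX6B1 and ATP5L2 with GW3965, for SDHA, NDUFB8, NDUFA2 and NDUFA4L2 with T0901317, and for no member with rosiglitazone, where 16.1%, 14.3% and 12.2% of all genes passed that rule.

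**Figure D2:**
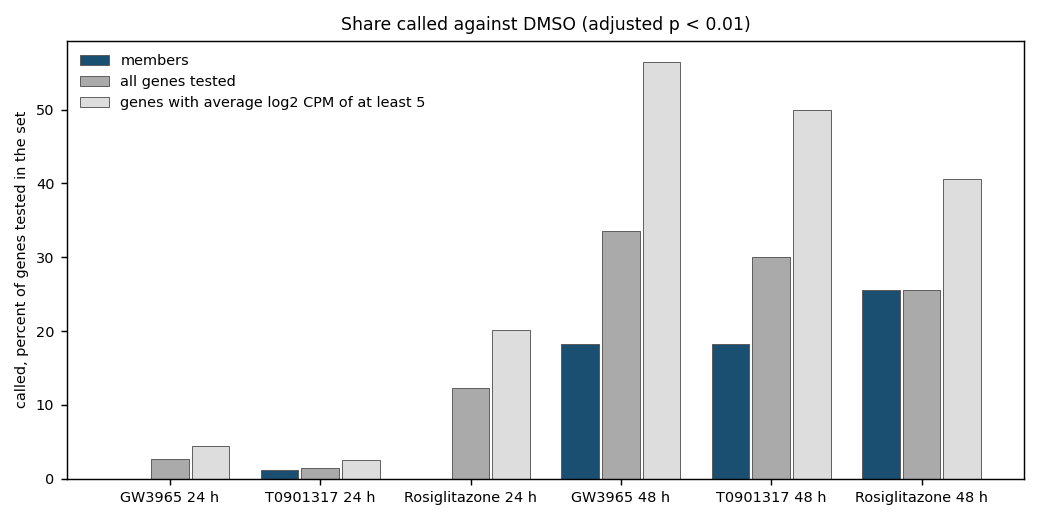
Percentage of genes called in either direction (y axis, percent, starting at 0) in the 6 comparisons of a drug with DMSO, for the members, for all genes tested and for genes whose log2 CPM averaged 5 or more. With GW3965 at 48 h the bars stand at 18.3%, 33.6% and 56.5%.

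In complex II, SDHA and SDHC rose with both LXR agonists at 48 h. SDHA was at 341, 340, 364 and 362 CPM with GW3965 and at 362, 345, 366 and 342 CPM with T0901317, against 196 to 216 CPM with DMSO. Every library of both agonists lay above every DMSO library of 48 h, at levels that the DMSO libraries of 24 h also had (333 to 372 CPM). The log2 change was 0.77 with GW3965 (SE 0.079, adjusted p = 2.0e-07) and 0.78 with T0901317 (adjusted p = 1.9e-07). SDHC, a membrane anchor of the complex, rose from 35.6 to 37.0 CPM in DMSO to 42.5 to 46.3 CPM with GW3965 (log2 change 0.28) and 44.2 to 49.5 CPM with T0901317 (0.37). SDHB, the iron-sulfur subunit, did not pass the test with either agonist (0.06 and 0.12), nor did SDHD. The summed CPM of complex II, a sum in which long transcripts weigh more, was 1.48 times that of DMSO with GW3965 and 1.51 times with T0901317. SDHA made up most of the mean sums of 488 CPM with GW3965, 498 with T0901317 and 331 with DMSO. The sum therefore largely repeats the change of SDHA.

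With rosiglitazone at 48 h SDHA was at 244, 213, 168 and 206 CPM, a range that spans all 4 DMSO libraries, with a log2 change of -0.01 and an interval of -0.17 to 0.16. SDHB instead rose with rosiglitazone, from 46.0 to 50.5 CPM in DMSO to 55.5 to 63.1 CPM (log2 change 0.27). The direct contrast of rosiglitazone with GW3965 at 48 h gave a log2 difference of -0.78 for SDHA (adjusted p = 7.6e-08), and -0.32 for SDHC. DMSO libraries are not compared in it but are in its fit, where they enter the scaling and the estimate of the spread.

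SDHA shares sequence with pseudogenes, and reads of near-identical copies may be split among rows. The rows SDHAP1, SDHAP2 and SDHAP3 together held 16% of the joint counts of SDHA and these rows. For the LXR agonists at 48 h the means of all 3 rows were above those of DMSO, as was SDHA. SDHAP1 was at 29.5 CPM in DMSO at 24 h, and, at 48 h, at 20.7 in DMSO, 29.6 for GW3965, 28.4 for T0901317 and 20.8 for rosiglitazone. SDHAP3 differed from SDHA with rosiglitazone at 48 h, where its mean was 5.77 CPM against 7.43 with DMSO and the libraries did not overlap, and with GW3965 at 24 h (7.58 against 9.51 CPM). Of the 86 genes, 29 had named pseudogene rows, and for 5 these rows held over 5% of the joint counts: COX6A1 35.3%, UQCRFS1 26.5%, SDHA 16%, NDUFB1 10.3% and SDHD 9.36%. Values of these 5 are uncertain, and the shares do not bound the error, since how shared reads were counted is not known.

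**Figure D3:**
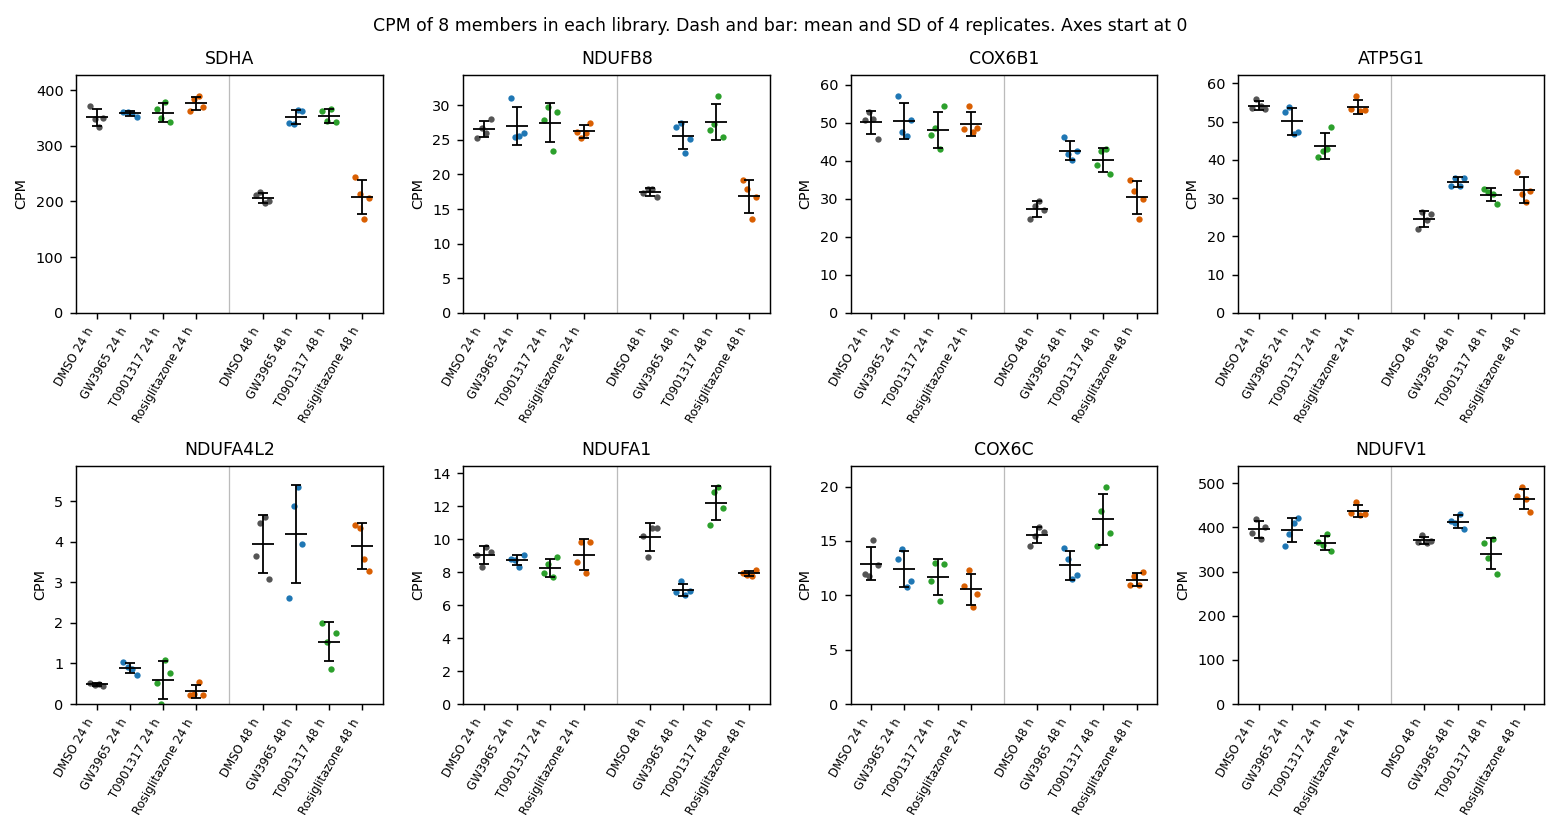
Levels in CPM (y axes, starting at 0) of SDHA, NDUFB8, COX6B1, ATP5G1, NDUFA4L2, NDUFA1, COX6C and NDUFV1 in the 8 groups of drug and time; points are libraries, and each dash with its bar is the mean and SD of 4. SDHA at 48 h was at 340 to 366 CPM with the LXR agonists and at 168 to 244 CPM with DMSO or rosiglitazone.

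In complex I, GW3965 raised 2 genes and lowered 3 at 48 h, and T0901317 raised 4 and lowered 2. NDUFB8 was at 17.3, 17.9, 18.0 and 16.7 CPM with DMSO, at 26.9, 27.4, 23.1 and 25.1 CPM with GW3965 and at 26.4, 27.3, 31.3 and 25.4 CPM with T0901317. Neither agonist group overlapped with DMSO (log2 changes 0.55, adjusted p = 7.3e-05, and 0.66, adjusted p = 9.9e-06). Rosiglitazone libraries ran from 13.5 to 19.2 CPM and spanned the DMSO values.

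NDUFS1, an iron-sulfur protein of the module that oxidizes NADH, fell with both agonists. It was at 128, 125, 137 and 124 CPM with DMSO, at 98.3 to 108 CPM with GW3965 (log2 change -0.32, adjusted p = 6.2e-05) and at 106 to 113 CPM with T0901317 (-0.23). NDUFV1, the flavoprotein of that module, was not called with either (0.15 with GW3965 and -0.12 with T0901317) and rose with rosiglitazone, from 365 to 382 CPM to 436 to 490 CPM (0.31).

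NDUFA1, an accessory subunit, had the widest gap among genes higher with T0901317 than with GW3965. With DMSO it was at 10.2, 8.91, 10.7 and 10.7 CPM, with GW3965 at 6.77, 7.48, 6.60 and 6.88 CPM, and with T0901317 at 10.9, 12.9, 13.1 and 11.9 CPM. It fell with GW3965 (log2 change -0.55, adjusted p = 1.9e-05), and with T0901317 its change of 0.27 missed the threshold (adjusted p = 0.011). NDUFA2, also an accessory subunit, rose from 9.68 to 10.9 CPM to 15.2, 19.1, 18.0 and 15.9 CPM with T0901317 (0.71, adjusted p = 1.9e-05), and its change with GW3965 was 0.18, not called. The other calls counted with complex I were NDUFS6 (0.25) and NDUFC1 (-0.36) with GW3965, and NDUFB6 (0.52), NDUFA4 (0.35) and NDUFA4L2 (-1.35) with T0901317. NDUFA4 and NDUFA4L2 are counted here by name only.

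Among subunits of complex III, single genes were called with the LXR agonists. UQCRQ, a small accessory subunit, fell with GW3965 from 55.5 to 61.1 CPM to 44.6 to 49.0 CPM (log2 change -0.30), and UQCR10 rose with T0901317 (0.32). The core protein UQCRC1 changed by 0.05 and 0.00, and UQCRFS1, the Rieske iron-sulfur protein, by -0.16 and -0.07, none called. The call of UQCRQ was lost without DMSO replicate 1 or GW3965 replicate 3 or 4 (adjusted p up to 0.018).

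In complex IV, COX6B1 rose with both. It was at 24.6, 28.2, 29.5 and 27.2 CPM with DMSO, at 46.3, 41.7, 40.2 and 42.6 CPM with GW3965 (log2 change 0.64, adjusted p = 9.2e-06) and at 39.0, 42.7, 43.0 and 36.5 CPM with T0901317 (0.56). Rosiglitazone libraries at 24.6 to 34.9 CPM overlapped with DMSO. GW3965 lowered COX7A2L, a factor in the joining of complexes III and IV, from 33.8 to 37.4 CPM to 29.5 to 30.3 CPM (-0.27), and COX7C, a small subunit (-0.21). The call of COX7A2L was lost without any 1 of 7 of the 8 libraries, DMSO replicate 2 excepted (adjusted p up to 0.025). T0901317 raised the small subunits COX7A2 (0.36), COX7B (0.39) and COX7C (0.22) beside COX6B1. COX4I1 and COX5A, core nuclear subunits, had changes of -0.09 to 0.12 with all 3 drugs and no call.

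In complex V, ATP5G1 was at 21.9 to 26.4 CPM with DMSO, at 33.1, 35.4, 33.2 and 35.4 CPM with GW3965 (log2 change 0.48, adjusted p = 3.5e-05), at 32.4, 31.7, 31.1 and 28.5 CPM with T0901317 (0.33) and at 36.9, 31.1, 28.9 and 31.9 CPM with rosiglitazone (0.37). No group of treated libraries overlapped with DMSO, and all 12 were below the 24 h DMSO libraries. ATP5G3 rose from 63.8 to 66.1 CPM to 72.4 to 81.3 CPM with GW3965 (0.26) and 82.1 to 89.7 CPM with T0901317 (0.42). ATP5L2, a near copy of the subunit g gene ATP5L whose reads may be shared with it, rose with GW3965 from 1.97 to 2.15 CPM to 3.54 to 4.63 CPM (0.90, adjusted p = 0.00047). ATP5E, the small epsilon subunit, fell with GW3965 (-0.35). ATP5A1 (0.08 and 0.06), the alpha subunit, and ATP5B (0.03 and 0.01), the catalytic beta subunit, were not called with either LXR agonist.

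Of the counts, the 7 genes lower with GW3965 became 4 without DMSO replicate 3 or 4 and 3 without GW3965 replicate 3 or 4. With DMSO replicate 3 and T0901317 replicate 3 both left out, the counts were 8 higher and 5 lower with GW3965, 9 higher and 2 lower with T0901317, and 12 higher and 7 lower with rosiglitazone. Without both, ATP5G1 lost its call with T0901317 (0.32, adjusted p = 0.012), and UQCRB with rosiglitazone (-0.26, adjusted p = 0.021). T0901317 replicate 3 also had the highest summed CPM of the 83 subunit genes in its group, 4710 against 4109 to 4403.

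**Figure D4:**
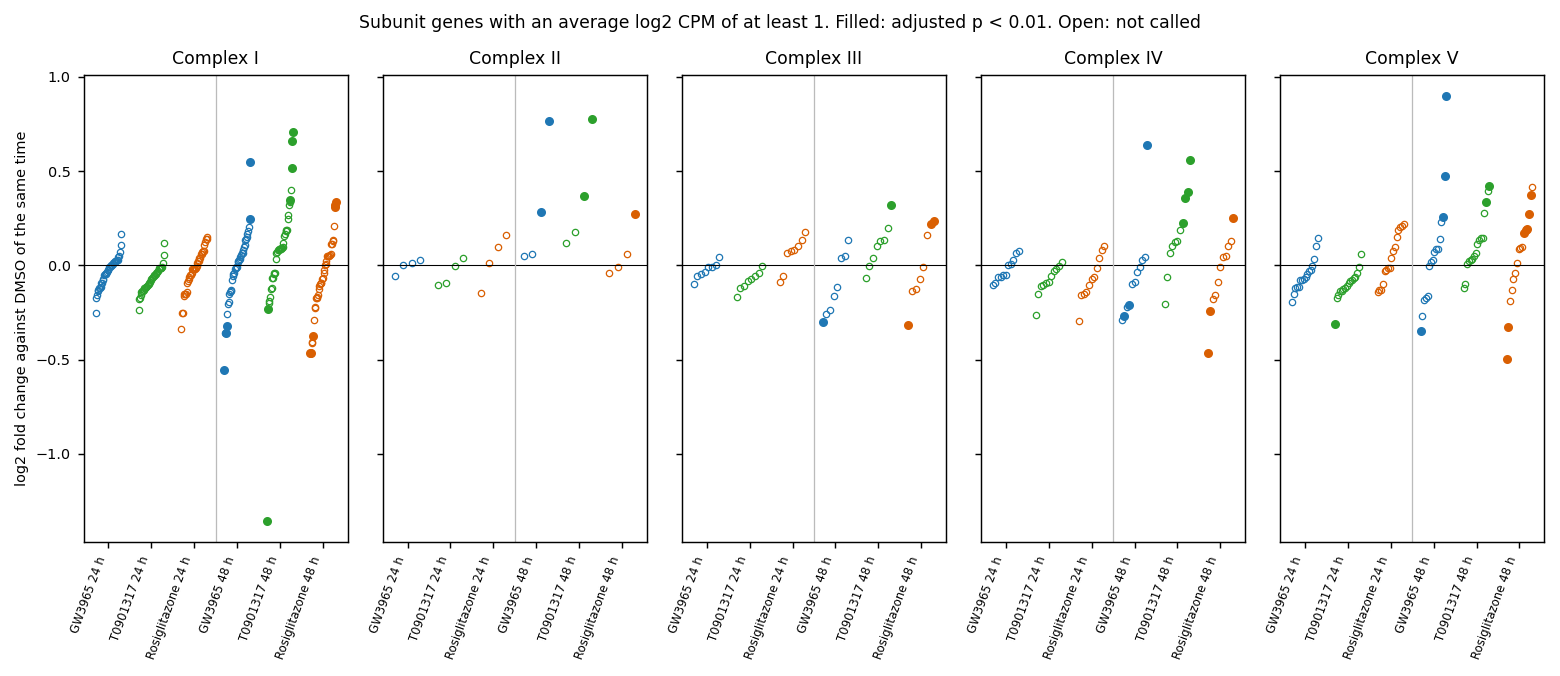
Log2 fold change against DMSO of the same time (y axis) for each subunit gene whose log2 CPM averaged 1 or more, in 1 panel a complex and 1 column a drug and time; filled points passed an adjusted p of 0.01 and open ones did not. In the complex II panel the filled points at 0.77 with GW3965 and 0.78 with T0901317 at 48 h are SDHA.

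With rosiglitazone at 48 h, 12 subunit genes and COX4NB were called higher and 8 subunit genes lower. ATP5B was at 470, 470, 463 and 455 CPM with DMSO and at 553, 545, 585 and 590 CPM with rosiglitazone (log2 change 0.27). ATP5A1 (0.19), ATP5C1 (0.17) and ATP5F1 (0.19) of complex V, UQCRC2 (0.22) and UQCRFS1 (0.24) of complex III, NDUFV1 (0.31), NDUFS7 (0.34) and NDUFS6 (0.32) of complex I, SDHB (0.27), COX8A (0.25) and ATP5G1 (0.37) were the other subunit genes called higher. COX4NB, a member by name alone, was at 23.6 to 25.9 CPM with DMSO and at 30.1 to 30.4 CPM with rosiglitazone (0.25). Called lower were ATP5I (-0.50) and ATP5E (-0.33) of complex V, NDUFA5 (-0.47), NDUFB4 (-0.46) and NDUFA1 (-0.37) of complex I, UQCRB (-0.32) of complex III, and COX6C (-0.46) and COX7C (-0.24) of complex IV. COX6C fell from 14.5, 15.5, 16.3 and 15.8 CPM to 11.0, 11.7, 10.9 and 12.1 CPM with no overlap, and UQCRB overlapped with DMSO (58.0 to 71.3 against 48.0 to 59.3 CPM). Single libraries decided some of these calls, with log2 changes of the same sign. Without 1 library, UQCRB lost its call for DMSO replicate 1, 3 or 4 or rosiglitazone replicate 2, 3 or 4 (adjusted p up to 0.046), UQCRFS1 for DMSO 1, 2 or 4 or rosiglitazone 2, 3 or 4 (up to 0.022), COX8A for DMSO 2, 3 or 4 or rosiglitazone 1 or 4 (up to 0.018), ATP5I for DMSO 1 or 3 or rosiglitazone 2 or 3 (up to 0.014), and ATP5A1 for DMSO 1 or rosiglitazone 4 (up to 0.019).

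The direction of the rosiglitazone response depended on how libraries were scaled. Scaled by library size alone, the 48 h comparison moved the median of all genes by -0.18 and gave 0 members higher and 21 lower, in place of 13 and 8. Relative to the median of all genes, the members' median lay at 0.02 under either scaling. The summed CPM of complex V was 1.12 times that of DMSO with TMM scaling and 0.977 times with library size scaling, and that of complex I 1.08 and 0.942 times. Without DMSO replicate 3 the 8 genes lower became 5, and without rosiglitazone replicate 4 the 13 higher became 8.

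Compared directly at 48 h, at the same dose and time, T0901317 and GW3965 differed in 16 of the 82 genes, 13 higher with T0901317 and 3 lower (19.5% called, against 8.36% of all genes, 3.32% of them higher and 5.03% lower, and 19.0% of well-expressed ones). This is 1 of 4 contrasts between drugs, 2 pairs at each time, and p-values were adjusted over all genes of each contrast. The 13 higher were NDUFA1 (0.82, adjusted p = 4.0e-06), NDUFB1 (0.61), NDUFA2 (0.53), NDUFC1 (0.44), NDUFB4 (0.39) and NDUFA4 (0.33) of complex I, UQCRB (0.46) and UQCRQ (0.40) of complex III, COX7C (0.43), COX6C (0.42), COX7B (0.36) and COX6A1 (0.29) of complex IV, and ATP5E (0.49) of complex V. As background, all of these but ATP5E encode accessory subunits without a redox centre. The 3 lower were NDUFA4L2 (-1.43), NDUFS7 (-0.40) and NDUFV1 (-0.27). The count of 13 higher was 5 without T0901317 replicate 2, 8 without T0901317 replicate 3, 7 without GW3965 replicate 2 or 3, and 8 without GW3965 replicate 4. It was 5 without both libraries of low mitochondrial share, DMSO replicate 3 and T0901317 replicate 3, and 21 with library size scaling. Cytosolic ribosomal protein genes, of which 17 of 77 were higher and 1 lower with T0901317 in the same contrast (10 and 1 without both libraries), moved beside them, and their part in the result was not tested. No difference was called for SDHA (0.01, interval -0.15 to 0.18), SDHC (0.09, -0.04 to 0.21), NDUFB8 (0.11, -0.08 to 0.30), COX6B1 (-0.08, -0.26 to 0.11) or ATP5G1 (-0.14, -0.30 to 0.01).

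Rosiglitazone and GW3965 differed at 48 h in 18 genes, 10 higher with rosiglitazone and 8 lower (22.0%, against 45.0% of all genes). Besides SDHA and SDHC, the lower ones included NDUFB8 (-0.62), COX6B1 (-0.51) and ATP5G3 (-0.33), and the higher ones UQCRFS1 (0.40), NDUFS1 (0.34) and ATP5B (0.24). The 10 higher became 5 or 6 without GW3965 replicate 1, 2 or 3 or rosiglitazone replicate 3 or 4. Library size scaling turned the balance, to 2 higher and 19 lower, and without both libraries of low mitochondrial share the counts were 11 and 7. All 8 epithelial markers were called in this contrast, 5 higher and 3 lower, and their part was not tested. At 24 h, T0901317 and GW3965 differed in no gene, where 0.790% of all genes were called. At an unadjusted p under 0.05, 3 were lower with T0901317 and 0 higher, and DESeq2 made no call. Rosiglitazone and GW3965 differed at 24 h in 2 genes, where 10.7% of all genes were called: ATP5D, the delta subunit of complex V, and COX4NB, both higher with rosiglitazone. That count became 4 without GW3965 replicate 1 and 1 without GW3965 replicate 3 or rosiglitazone replicate 1 or 2, and DESeq2 called 2 genes lower as well.

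The difference between the responses at 48 h and 24 h was tested in one fit of all 32 libraries. For GW3965 it was called in 9 genes (7 higher and 2 lower, where 21.6% of all genes were called), for T0901317 in 11 (10 higher and 1 lower, 17.4%) and for rosiglitazone in none (2.45%). For rosiglitazone 11 were higher and 5 lower at an unadjusted p under 0.05, and DESeq2 called 2. Without both 48 h libraries of low mitochondrial share, 8, 9 and 0 differences were called. The SDHA response was larger at 48 h than at 24 h by 0.74 for each LXR agonist on the log2 scale. At 24 h the SDHA changes had been 0.03 for GW3965, 0.04 for T0901317 and 0.09 for rosiglitazone, none called. The same test was passed by COX6B1 (0.63 with GW3965 and 0.61 with T0901317), NDUFB8 (0.52 and 0.61) and ATP5G1 (0.59 and 0.65). These interaction values use the DMSO libraries of both times, in which all 4 genes fell between 24 and 48 h.

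Members known from restricted tissues were scarce or absent. COX7B2 and COX8C had no count in any library, COX4I2 at most 1 count and COX6A2 at most 12, and these 4 were not tested. COX7A1, known from heart and skeletal muscle, had group means of 0.444 to 0.697 CPM, and COX6B2, known from testis, 0.206 to 0.924 CPM, with no call against DMSO. NDUFA4L2 fell with T0901317 at 48 h, to 2.01, 1.52, 0.872 and 1.74 CPM from 3.08 to 4.61 CPM with DMSO (log2 change -1.35, adjusted p = 9.2e-05). It was at 2.61 to 5.34 CPM with GW3965 and 3.27 to 4.42 CPM with rosiglitazone, and both ranges overlapped with DMSO.

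The 13 subunits encoded by mitochondrial DNA, which join the nuclear ones in complexes I, III, IV and V, had no call with any drug at 24 h. At 48 h, GW3965 raised 2 (MT-ND5 0.51 and MT-CO1 0.39), T0901317 raised 6 (MT-ND4 0.55, MT-CO2 0.52, MT-ND5 0.51, MT-ND6 0.49, MT-CO1 0.41 and MT-CO3 0.28) and rosiglitazone 0, with median log2 changes of 0.35, 0.41 and 0.22. The shares called were 15.4%, 46.2% and 0%, where 33.6%, 30.0% and 25.5% of all genes were called. The libraries with a low mitochondrial share moved these values. The summed CPM of the list was 17425 in DMSO replicate 3 against 25563 to 26172 in the other DMSO libraries of 48 h, and 23291 in T0901317 replicate 3 against 33452 to 35223. Without both libraries, GW3965 raised 6, T0901317 raised 9 and rosiglitazone raised 1, with medians of 0.20, 0.39 and 0.09. With all libraries and rosiglitazone at 48 h, the summed CPM of the list was 1.20 times that of DMSO with TMM scaling. It was 1.04 times with library size scaling.

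Genes around the complexes were counted from lists of their kind. Calls in these lists, and in the regulators and ribosomal protein genes below, were counted with TMM scaling only. Library size scaling moved the median of all genes by -0.18 with rosiglitazone at 48 h, and the directions of the lists under it were not tested. At 48 h, 33.6% of all genes tested were called with GW3965, 30.0% with T0901317 and 25.5% with rosiglitazone. Of well-expressed genes, 56.5%, 49.9% and 40.6% were called. Among 9 subunits, carriers and an inhibitor outside the name pattern, 2 rose and 3 fell with GW3965 at 48 h (55.6% called). With T0901317 2 rose and 2 fell (44.4%), and with rosiglitazone 2 rose and 1 fell (33.3%). The carrier CYCS, cytochrome c, fell with GW3965 (-0.40) and T0901317 (-0.42) and rose with rosiglitazone (0.41), as did CYC1, the heme subunit of complex III, with rosiglitazone (0.46). SLC25A5, an exchanger of ADP and ATP, was at 169 to 181 CPM in DMSO at 48 h and rose with GW3965 (0.48) and T0901317 (0.52). Of 48 assembly factors, 3 rose and 13 fell with GW3965, 3 rose and 9 fell with T0901317, and 4 rose and 3 fell with rosiglitazone. NDUFAF4, a factor for complex I, fell by 0.93 on the log2 scale with GW3965 and by 0.73 with T0901317. Of 13 TCA cycle genes outside complex II, 4 rose and 4 fell with GW3965 (61.5% called), and 1 rose and 1 fell with T0901317 (15.4%). With rosiglitazone 7 rose (53.8%), MDH2 (0.41) and OGDH (0.40) among them.

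Among 10 regulators of mitochondrial biogenesis tested, 3 rose and 4 fell with GW3965 at 48 h, 1 rose and 4 fell with T0901317, and 5 rose with rosiglitazone. Of all genes tested, 33.6%, 30.0% and 25.5% were called in these comparisons, and of well-expressed genes 56.5%, 49.9% and 40.6%. PPARGC1B, a coactivator of respiratory genes, was at 5.74 to 8.88 CPM with DMSO and rose with GW3965 (1.21), T0901317 (1.07) and rosiglitazone (1.16). NRF1 itself fell with GW3965 (-0.65) and T0901317 (-0.59), as did GABPB1, a partner of the ETS factor GABPA (-1.05 and -1.11), and TFB2M, a transcription factor of mitochondrial DNA (-0.83 and -0.75). With rosiglitazone, POLRMT (0.52), PPRC1 (0.51), ESRRA (0.47) and TFB2M (0.37) rose. At 24 h, 2 of these 10 regulators rose with rosiglitazone, PPARGC1B (0.99) and ESRRA (0.39), where 12.3% of all genes were called. No nuclear subunit gene was called in that comparison. Whether regulators changed before subunit genes was not tested.

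Protein genes of both ribosomes were counted beside them. Of 75 mitochondrial ribosomal protein genes, 6 rose and 24 fell with GW3965 at 48 h, 6 rose and 19 fell with T0901317, and 12 rose and 1 fell with rosiglitazone. The shares called were 40.0%, 33.3% and 17.3%, where 33.6%, 30.0% and 25.5% of all genes were called. Of 77 cytosolic ones, 8 rose and 11 fell with GW3965 (24.7% called), 4 rose with T0901317 (5.19%), and 2 rose and 24 fell with rosiglitazone (33.8%). At 24 h, 9 of the 75 mitochondrial ones rose with rosiglitazone, a share near the 12.3% of all genes called. None was called with the LXR agonists, where 2.73% of all genes were called with GW3965 and 1.45% with T0901317. The part of these ribosomal protein genes in the results of the members was not tested. Without both 48 h libraries of low mitochondrial share, counts of these lists moved by over 1.5 times for assembly factors higher with GW3965 (1 in place of 3) and, with T0901317, for subunits and carriers outside the name pattern (1 higher in place of 2), TCA cycle genes (0 higher in place of 1), mitochondrial ribosomal proteins (12 lower in place of 19) and cytosolic ones (1 higher in place of 4).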

How the data were processed

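RNA-seq counts per gene, deposited by the authors as 1 table for 24 h and 1 for 48 h (51838 rows, 16 libraries each), were used as deposited. Per the labels, the processing notes list TopHat, Cufflinks, Bowtie and MACS and the build hg19; the sources used here name no counting program, strand setting or annotation release. In the 24 h table, 24371 values were 1, 24656 were 2, 12819 were 3 and 12947 were 4, an even pairing whose origin was not tested. ChIP-seq files were not used here, and no columns of other samples were present.

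Counts were fitted with edgeR 4.0.16 in R 4.3.3 (TMM scaling, filterByExpr, quasi-likelihood F test, Benjamini-Hochberg over all genes tested), for the 16 libraries of each time point and, for differences between times, for all 32. Calls took an adjusted p under 0.01, and a second rule also 1.5-fold. The fits tested 21781, 22470 and 23140 genes, with a biological coefficient of variation of 0.0981, 0.101 and 0.0998. The script was tested on simulated counts. CPM used TMM factors of all 32 libraries (0.872 to 1.10). Intervals are 95% intervals of the log2 fold change. DESeq2 1.42.0, other scalings, no filter, 2-group fits, a replicate block, a 0.05 threshold and leaving out each library were alternatives; leaving out both libraries with a low mitochondrial share was added after the data were seen, for all fits that use them.

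The members and lists were chosen with earlier results of these data known. Named by rule were, for each complex and drug comparison, the 2 called members with the largest absolute change and a log2 CPM averaging 1 or more, the core subunits (one is not reported here), the isoforms of restricted tissues, and up to 4 genes of each other list; other called members are named to complete the counts, after their values were seen. Promoters are RefSeq's (GRCh38.p14), matched through gene identifiers to current symbols, in Python 3.11.15; they were used as sequence only and not set against coordinates of hg19.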

Additional observations from a re-analysis of the deposited data

Results flagged for a closer look

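Among 294 groups of 4 libraries checked with Dixon's test, 19 held a library whose gap to the others passed the 95% critical value, where chance flags about 1 group in 20. Rosiglitazone replicate 2 at 24 h was the high library for NDUFB4 (30.2 CPM), UQCRB (76.4 CPM), COX6B1 (54.4 CPM), COX7B (20.1 CPM), ATP5B (599.6 CPM) and ATP5G1 (56.7 CPM), and rosiglitazone replicate 3 at 24 h for NDUFA4L2 (0.537 CPM). GW3965 replicate 1 at 24 h was high for NDUFB8 (31.1 CPM), COX4I1 (76.3 CPM) and COX8A (57.6 CPM), and DMSO at 24 h for UQCRQ in replicate 3 (62.0 CPM) and COX6B2 in replicate 2 (0.863 CPM). At 48 h, GW3965 replicate 1 was high for ATP5L2 (4.63 CPM).

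In the other 6 groups a single library held counts and the other 3 held none. These were COX4I2 in T0901317 replicate 1 at 24 h (0.0259 CPM), DMSO replicate 2 at 48 h (0.0295 CPM) and GW3965 replicate 2 at 48 h (0.0271 CPM), and COX6A2 in DMSO replicate 1 at 24 h (0.147 CPM), DMSO replicate 1 at 48 h (0.353 CPM) and T0901317 replicate 4 at 48 h (0.0594 CPM).

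Of 31 named members tested in each drug for a difference between the responses at 48 h and 24 h, 19 differences passed an adjusted p of 0.01 by edgeR's quasi-likelihood test. On the log2 scale, the GW3965 response at 48 h exceeded that at 24 h by 0.74 for SDHA, 0.63 for COX6B1, 0.59 for ATP5G1, 0.52 for NDUFB8, 0.34 for SDHC and 0.34 for ATP5G3. It was lower at 48 h for NDUFA1 (-0.50) and NDUFS1 (-0.37). The T0901317 response was higher at 48 h for NDUFA2 (0.85), SDHA (0.74), COX7B (0.66), ATP5G1 (0.65), COX6B1 (0.61), NDUFB8 (0.61), ATP5G3 (0.51), UQCR10 (0.49), SDHC (0.46) and NDUFA1 (0.40), and lower for NDUFA4L2 (-1.74). For NDUFA1 the difference of responses thus had opposite signs with the 2 agonists. Each value includes the DMSO libraries of both times, and the difference between these 2 differences was not tested.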

How the results depend on the processing

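Of 36 called changes of 26 named genes against DMSO, none changed sign under the alternatives run; 59 of 539 values lost the threshold and 480 did not. Changes that were not called were not followed. The limits lie in scaling, in single libraries and in the threshold, and the cause of each change was not tested. Library size scaling gave 0 members higher and 21 lower with rosiglitazone against DMSO at 48 h, 2 higher and 19 lower against GW3965 at 48 h, 1 lower against DMSO and 1 higher against GW3965 at 24 h, 1 lower with T0901317 against DMSO at 48 h and 21 higher with T0901317 against GW3965. DESeq2 gave 2 higher with rosiglitazone at 24 h, 2 lower in its contrast with GW3965 at 24 h and 2 differences of its response between times. Median-ratio scaling and 2-group fits each gave 1 higher with rosiglitazone at 24 h. With GW3965 at 48 h, 4 genes were lower without the filter and 11 in a 2-group fit. At an adjusted p under 0.05, rosiglitazone at 24 h had 3 higher and 2 lower, GW3965 at 48 h 16 lower, and T0901317 at 48 h 22 higher and 4 lower.

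Correlations of deviations between same-numbered libraries were over 0.1 in 3 of 24 pairs at 24 h and in 3 of 24 at 48 h. They ranged from -0.220 to 0.275 and from -0.0804 to 0.186, and 9 and 8 were a library's best. The value of 0.186 was between replicate 3 of DMSO and of T0901317, and replicate 3 of DMSO and of rosiglitazone had 0.135. Low correlations over all genes cannot exclude that same-numbered libraries were handled together. A replicate block gave 0 lower with T0901317 at 24 h and moved no other count by over 1.5 times.

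Leaving out 1 library gave, for GW3965 at 48 h, 8 higher and 3 to 6 lower, for T0901317 10 to 15 higher and 2 to 3 lower, and for rosiglitazone 8 to 11 higher and 5 to 9 lower. At 24 h it gave 0 to 1 lower with T0901317 and 0 to 1 in each direction with rosiglitazone. Rosiglitazone against GW3965 ranged from 1 to 4 higher and 0 to 1 lower at 24 h and from 5 to 10 higher and 6 to 10 lower at 48 h, and T0901317 against GW3965 at 48 h from 5 to 13 higher and 2 to 4 lower. Differences between times ranged from 7 to 9 for GW3965, 9 to 13 for T0901317 and 0 to 2 for rosiglitazone, and DMSO at 48 h against 24 h from 4 to 5 higher and 28 to 33 lower. Without both libraries of low mitochondrial share, 5 genes were higher with T0901317 against GW3965 at 48 h in place of 13. COX4I2, with at most 1 count a library, and COX6A2, with at most 12, were too low to be tested.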
